A study of Mus musculus with 3 samples.

Results

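The genes described are 7 genes of the specific and gelatinase granules of neutrophils, Camp, Ngp, Ltf, Lcn2, Chil3, Mmp8 and Mmp9, taken from a matrix of 27998 genes by their symbols, each of which named 1 gene. They were followed in single cells of the meninges, the membranes around the brain, of male C57BL/6J mice aged 10 to 12 weeks. Each of the 3 libraries pooled 4 mice: HC replicate 1 and HC replicate 2 came from 8 unstressed mice kept in the homecage (HC), and CSD replicate 1 came from 4 mice found susceptible after 14 days of chronic social defeat (CSD), in which a mouse is repeatedly defeated by an aggressor. Live nucleated single cells were sorted and captured in droplets on 1 chip, and the distinct RNA molecules (UMIs) of each gene were counted from the 3′ end. With 1 CSD pool, an effect of stress and a property of that pool cannot be told apart.

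The libraries held 8814690 to 10206236 UMIs. Barcodes with at least 500 UMIs that passed limits on genes and mitochondrial UMIs numbered 2599 and 1702 for HC replicates 1 and 2 and 2756 for CSD replicate 1, and 2552, 1677 and 2615 cells remained after removal of doublets, with 16 barcode sequences present in more than 1 library. Values of 3 libraries are given below in this order. A level is the share of a gene in all UMIs of a cell class in a library, scaled to 1000000 UMIs (CPM), and is not scaled by gene length because only 3′ ends were read, so levels of different genes are not compared as amounts of transcript. Clusters were named from marker genes, written "-like" on that account. The 7 genes and related granule genes, namely other specific, gelatinase granule and secretory vesicle genes, were left out of the clustering. Azurophil granule genes were kept in it. RNA free in the suspension reaches every droplet: barcodes of at most 100 UMIs, taken as empty, held 7.87%, 24.1% and 5.48% of the UMIs of the libraries, and the 7 genes made up 2.47%, 3.45% and 4.43% of those.

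Neutrophils fill their granules in an order that follows their maturation in the bone marrow. Azurophil granules are made first, in promyelocytes, specific granules next, and gelatinase granules last, so the genes for granule proteins switch on and off in succession while the proteins stay in the cell until it is called to a tissue. Specific granules carry proteins that bind iron, disrupt microbes or sequester their nutrients, and gelatinase granules carry enzymes that open the matrix through which a neutrophil moves. Camp encodes the cathelicidin antimicrobial peptide, Ngp the neutrophilic granule protein, a cystatin-like protein, Ltf lactoferrin, which binds iron, and Lcn2 lipocalin 2, which binds the iron carriers of bacteria. Chil3 encodes Ym1, a chitinase-like lectin made by neutrophils and by several other myeloid cells. Mmp8 encodes neutrophil collagenase, and Mmp9 encodes gelatinase B.

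In the GRCm38 assembly with GENCODE vM21, 4 of the 7 genes lay on chromosome 9. Camp (chr9:109847379-109849617, minus strand, 4 exons), Ngp (chr9:110419747-110423012, plus strand, 4 exons) and Ltf (chr9:111019271-111042767, plus strand, 17 exons in the largest transcript) followed each other, with 570.1 kb between Camp and Ngp and 596.3 kb between Ngp and Ltf. Mmp8 (chr9:7558456-7568485, plus strand, 10 exons) lay elsewhere on that chromosome. Lcn2 (chr2:32384633-32388252, minus strand, 7 exons) and Mmp9 (chr2:164940780-164955850, plus strand, 13 exons) shared chromosome 2, and Chil3 (chr3:106147554-106167564, minus strand, 11 exons) was the only member on chromosome 3. All are annotated as protein coding.

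The bases before the start of a gene are shown for members that were highest at different stages, because the factor C/EBP epsilon is known to drive the specific granule genes. RefSeq promoters of GRCm38.p6 were matched for 6 of the 7 members, Mmp9 having none in the table. In each, the 250 bases before the RefSeq start were searched. Only the bases before the first base of a GENCODE exon are printed, 5′ to 3′ on the strand of the gene, which leaves none for Lcn2. Capitals mark a C/EBP motif, searched as TTNNGCAA and TTGCNNAA, which are the same motif on the opposite strands. These are Camp at chr9:109849618-109849706 (minus strand), Ngp at chr9:110419558-110419746 (plus strand), Ltf at chr9:111019042-111019270 (plus strand), Chil3 at chr3:106167565-106167814 (minus strand) and Mmp8 at chr9:7558179-7558428 (plus strand).
Camp: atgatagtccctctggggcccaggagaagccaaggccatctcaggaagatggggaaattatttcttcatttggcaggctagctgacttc
Ngp: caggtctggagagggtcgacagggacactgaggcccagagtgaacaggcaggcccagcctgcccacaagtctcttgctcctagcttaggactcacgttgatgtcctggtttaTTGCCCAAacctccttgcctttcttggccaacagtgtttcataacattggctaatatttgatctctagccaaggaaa
Ltf: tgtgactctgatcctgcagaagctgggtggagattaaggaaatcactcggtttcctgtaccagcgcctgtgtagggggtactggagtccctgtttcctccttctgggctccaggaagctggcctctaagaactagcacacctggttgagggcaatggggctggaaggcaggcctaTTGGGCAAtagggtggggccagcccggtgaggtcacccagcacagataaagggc
Chil3: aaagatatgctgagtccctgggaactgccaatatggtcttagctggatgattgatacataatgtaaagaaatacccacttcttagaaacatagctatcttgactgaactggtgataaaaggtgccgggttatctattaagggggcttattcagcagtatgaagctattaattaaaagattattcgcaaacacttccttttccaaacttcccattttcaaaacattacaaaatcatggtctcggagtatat
Mmp8: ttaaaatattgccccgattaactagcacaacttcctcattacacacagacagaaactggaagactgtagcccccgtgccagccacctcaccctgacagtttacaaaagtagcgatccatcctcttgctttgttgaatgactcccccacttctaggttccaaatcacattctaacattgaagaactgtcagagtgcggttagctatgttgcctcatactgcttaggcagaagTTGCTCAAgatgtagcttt
The motif was found in 9.56% of 32851 promoters of that length. Among the members it began 138 and 11 bases before the start of Ngp, the second within an annotated exon and not printed, 75 bases before that of Ltf, 216 before that of Lcn2, also exonic, and 19 before that of Mmp8. No match was found in the 250 bases of Camp, 161 of which lay in annotated exons, or in those of Chil3. The PU.1 motif GAGGAAG, or CTTCCTC on the other strand, occurred in Lcn2, within an annotated exon, in Mmp8 and in 10.6% of all promoters. The STAT motif TTCNNNGAA occurred in Chil3 and in 7.02% of all. A match of letters is a description and shows no binding.

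Neutrophil-like cells and their precursors formed 6 clusters. The subclusters of a stage were put in order by the distance of their centre from that of the preneutrophil-like cluster, after alignment of the libraries. Myeloid progenitor-like cells (30, 16 and 30) were led by Mpo and Ctsg, and preneutrophil-like cells (67, 29 and 87) by Fcnb and cell cycle genes. Immature neutrophil-like cells (301, 236 and 450) held an earlier subcluster 1 and a later subcluster 2. Mature neutrophil-like cells (475, 331 and 788) held subcluster 1, led by Retnlg, and subcluster 2, led by Il1b. The median number of UMIs per cell fell along this order, from 10492 in preneutrophil-like cells to 1053 in mature subcluster 2, and CPM corrects the level, not the precision, for that.

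The 5 genes Camp, Ngp, Ltf, Lcn2 and Chil3 were high in preneutrophil- and immature neutrophil-like cells and low in mature ones, whereas Mmp8 and Mmp9 were low in preneutrophil-like cells and highest in mature ones. These orders are descriptions of clusters of the same cells, with no test. Camp had 59840, 65640 and 66060 CPM in preneutrophil-like cells, 47160, 48880 and 52320 in immature cells and 6204, 6905 and 6883 in mature cells. The libraries of 1 stage did not overlap with those of another, and the mean in mature cells was 6664 ± 399 CPM against 63850 ± 3478 in preneutrophil-like cells (SD, n = 3 libraries). Ngp had 49360, 58060 and 63090 CPM in preneutrophil-like cells, 38960, 41490 and 54820 in immature cells and 6140, 8051 and 9217 in mature cells. Every library had its highest stage level of Ngp in preneutrophil-like cells, but the ranges over libraries of that stage and the next overlapped.

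Ltf had 4224, 7481 and 7230 CPM in preneutrophil-like cells, 5957, 7334 and 8284 in immature cells and 877.8, 1149 and 1177 in mature cells. Its first 2 stages were not told apart: 2 of 3 libraries were highest in immature cells, the ranges overlapped, and the mean was higher in preneutrophil-like cells when doublets were kept or when cells needed at least 1000 UMIs. Lcn2 had 8467, 11410 and 12740 CPM in preneutrophil-like cells, 11400, 11830 and 15770 in immature cells and 3920, 5110 and 6614 in mature cells. All 3 libraries were highest in immature cells, with overlapping ranges. Chil3 had 7571, 8530 and 10480 CPM in preneutrophil-like cells, 3624, 4318 and 5405 in immature cells and 633.2, 801.8 and 1084 in mature cells, so that its immature level was 0.479 to 0.516 of the preneutrophil level in the same library and the stages did not overlap.

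The matrix proteases ran the other way. Mmp8 had 183.4, 219.3 and 299.4 CPM in preneutrophil-like cells, 1372, 1689 and 1449 in immature cells and 1735, 1964 and 2285 in mature cells. The step from preneutrophil- to immature cells was 4.84 to 7.7-fold within a library, and the step from immature to mature cells 1.16 to 1.58-fold. With doublets kept, the mean of Mmp8 was higher in immature than in mature cells. Mmp9 had 102.6, 205.0 and 135.3 CPM in preneutrophil-like cells, 632.2, 601.2 and 577.5 in immature cells and 818.8, 957.4 and 716.7 in mature cells. The 3 libraries of each stage stood apart from those of the other stages for both proteases.

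**Figure D1:**
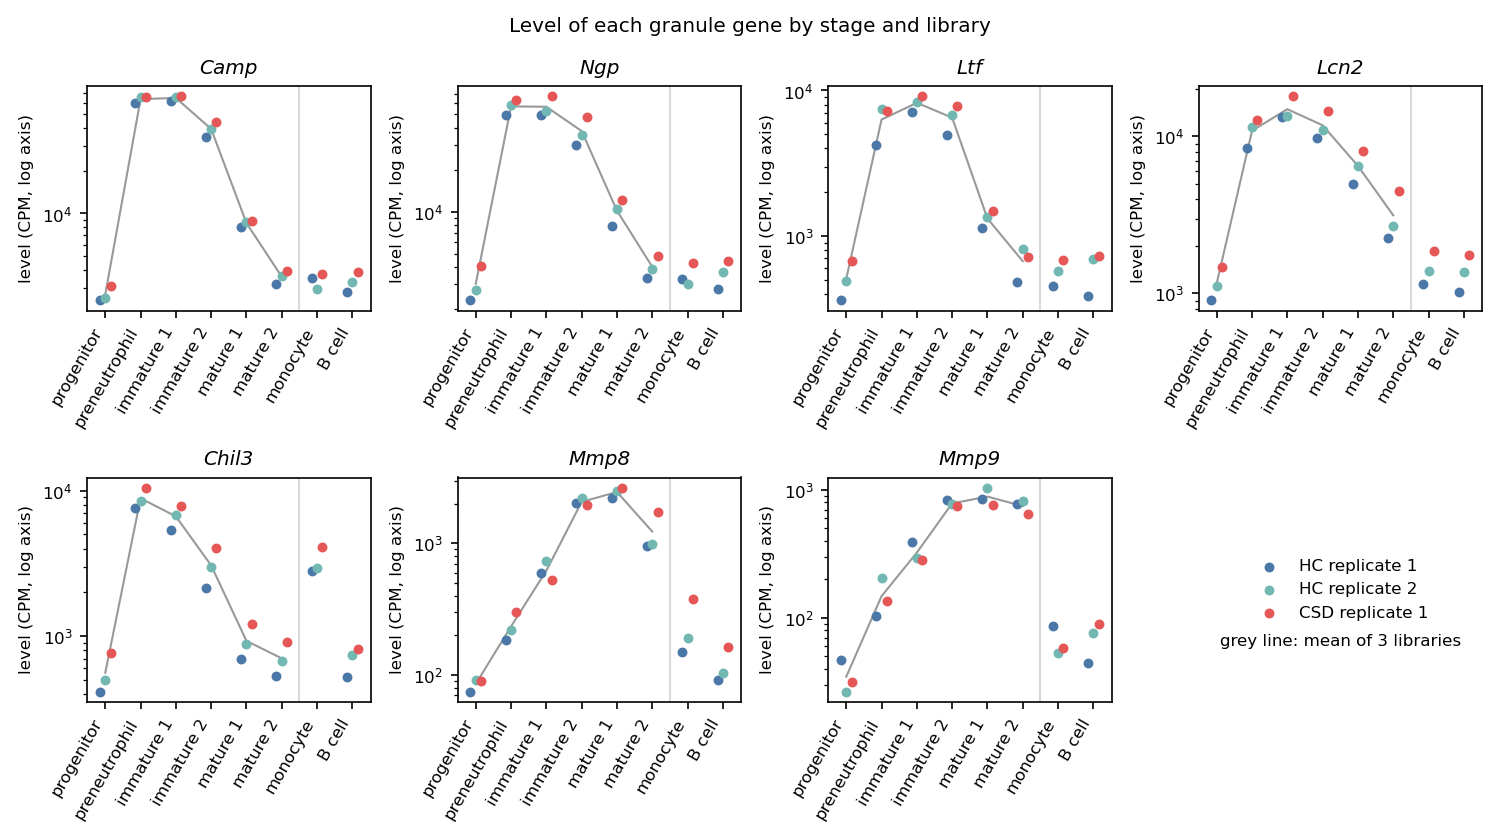
Level of each of the 7 genes (CPM, log axis) in each of the 3 libraries, along the 6 clusters from progenitor- to mature neutrophil-like cells and, right of the vertical line, in monocyte- and B cell-like cells; points are libraries and the grey line joins the means of 3 libraries. Camp, Ngp, Ltf, Lcn2 and Chil3 are highest in the preneutrophil or first immature cluster, Mmp8 and Mmp9 in the first mature one.

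The subclusters spread the decline over several steps. Mean levels of Camp were 65110 CPM in immature subcluster 1, 39350 in immature subcluster 2, 8563 in mature subcluster 1 and 3584 in mature subcluster 2, and the last was 0.0512 to 0.0591 of the first in the same library. These are measured levels with free RNA included. B cell-like cells, used below as the background, had 2787, 3269 and 3852 CPM of Camp. Mature subcluster 2 was near that, at 3177, 3615 and 3959 CPM. Ngp (3357, 3873 and 4820), Ltf (482.8, 806.3 and 720.7) and Chil3 (531.4, 669.2 and 905.1) were also near their background there. In B cell-like cells Ngp had 2778, 3709 and 4404 CPM, Ltf 385.0, 688.9 and 730.1 and Chil3 525.0, 739.3 and 819.0. Lcn2 declined least of the 5 in its measured level. Mature subcluster 2 had 0.169 to 0.251 of the Lcn2 level of immature subcluster 1, against 0.0675 to 0.0961 for Ltf. Accordingly the ratio of Lcn2 to Ltf UMIs was 1.53 to 2.0 in preneutrophil-like cells and both immature subclusters and 4.42 to 5.41 in mature subcluster 1. Chil3 declined most between the immature subclusters, where it kept 0.399 to 0.517 of its level and Ltf kept 0.691 to 0.854. Mmp8 was 2.97 to 3.75 times and Mmp9 2.13 to 2.62 times as high in immature subcluster 2 as in subcluster 1. From mature subcluster 1 to 2, Mmp8 went from 2460 ± 218 to 1231 ± 443 CPM, and Mmp9 from 882.8 ± 139.2 to 744.9 ± 88.3 CPM with overlapping libraries (SD, n = 3).

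The 7 genes took 14.7% ± 1.56 of all UMIs in preneutrophil-like cells, 12.1% ± 1.54 in immature cells and 2.44% ± 0.385 in mature cells (SD, n = 3 libraries). In immature subcluster 1 the share was 13.8%, 14.9% and 17.0%. Myeloid progenitor-like cells, which carried the azurophil granule genes, had 0.654%, 0.753% and 1.02%, below the 0.763%, 0.996% and 1.18% of B cell-like cells in each library. B cells are not known to make these proteins, and their values serve here as the background that free RNA leaves in a cell. For every member, the mean level in progenitor-like cells was below that in B cell-like cells, with Camp at 2695 ± 347 against 3302 ± 533 CPM (SD, n = 3).

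Within single cells the early and late genes overlapped. Every cell was thinned to 500 UMIs so that depth did not set the counts, which left out no cell. At that depth 84.1%, 86.9% and 90.2% of immature cells had a UMI of at least 5 members (exact 95% binomial intervals 79.4 to 88.0%, 81.9 to 90.9% and 87.1 to 92.8%, counting error only), against 25.7%, 33.2% and 42.4% of mature cells (21.8 to 29.9%, 28.2 to 38.6% and 38.9 to 45.9%). Cells with both an Ltf and an Mmp8 UMI made up 7.46%, 3.45% and 10.3% of preneutrophil-like cells, 40.5%, 45.8% and 43.8% of immature cells and 13.9%, 16% and 19.0% of mature cells. Free RNA adds to the Ltf share: 19.8%, 26.2% and 34.9% of B cell-like cells had an Ltf UMI, close to the 25.9%, 31.1% and 32.1% of mature cells, so that the share of mature cells with an Ltf UMI was near the background. The level of Ltf in mature cells was above it, at 877.8, 1149 and 1177 CPM against 385.0, 688.9 and 730.1 in B cell-like cells, and its mean ratio to empty droplets was 0.552 against 0.295. For Mmp8 the background was lower, at 3.74%, 3.83% and 8.72% of B cell-like cells against 42.5%, 49.8% and 60.3% of mature cells. Median depths before thinning were 1590, 1634 and 1379 UMIs in B cell-like and 1263, 1318 and 1482.5 in mature cells.

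**Figure D2:**
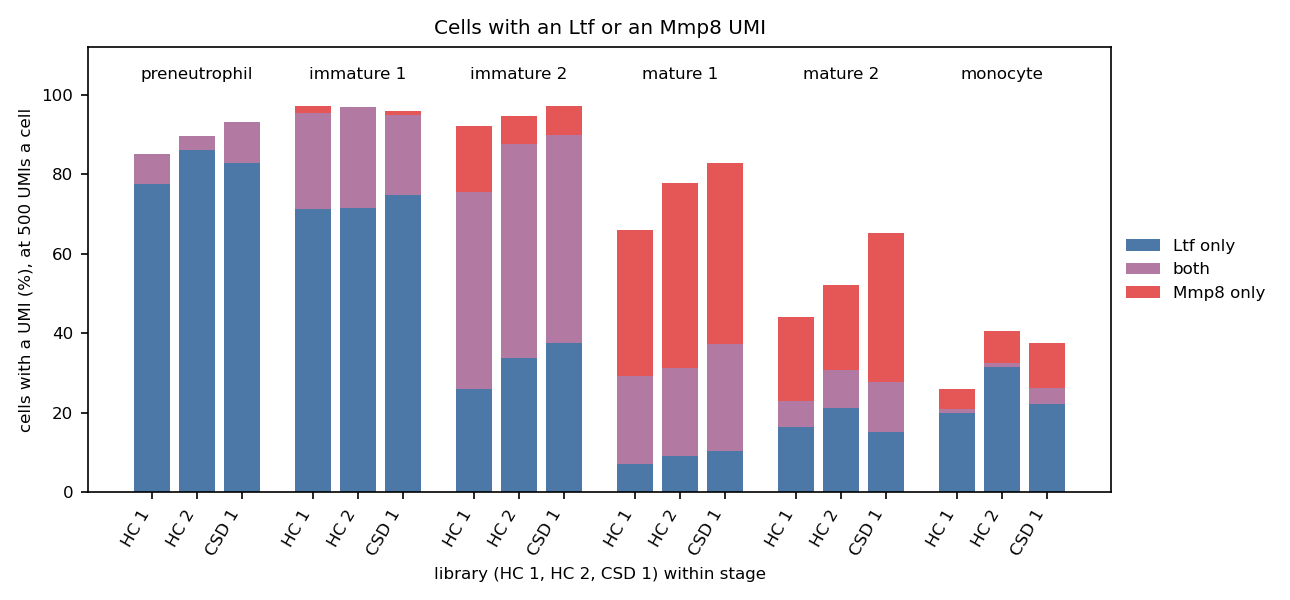
Share of cells (%) with an Ltf UMI only, an Mmp8 UMI only or both, after thinning each cell to 500 UMIs, for the 3 libraries of each stage and of monocyte-like cells. Cells with Ltf only prevail in preneutrophil-like cells and immature subcluster 1, cells with both reach their highest share in immature subcluster 2, and cells with Mmp8 only prevail in mature subcluster 1.

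Most transcripts of the 7 genes lay in the neutrophil lineage, and Chil3 had the lowest share there. Preneutrophil-, immature and mature neutrophil-like cells together held 86.4% ± 3.5 of all Camp UMIs of the cells, 84.6% ± 4.35 of Ngp, 82.4% ± 4.57 of Ltf, 79.9% ± 5.22 of Lcn2, 83.8% ± 1.79 of Mmp8 and 83.5% ± 5.09 of Mmp9 (SD, n = 3). Chil3 was lower at 67.0% ± 6.09, with a further 11.5% ± 1.92 in monocyte-like cells. Chil3 had 2792, 2920 and 4089 CPM in monocyte-like cells against 525.0, 739.3 and 819.0 in B cell-like cells, a ratio of 3.95 to 5.32, and the libraries of the classes did not overlap. An unnamed cluster, numbered 16, had 1419, 1655 and 2852 CPM of Chil3. It was led by Prtn3, Ctsg and cell cycle genes such as Aurkb, and of the marker lists it matched that of preneutrophils best. In the same monocyte-like cells Camp, Ngp, Ltf and Lcn2 were 0.82 to 1.26 times the B cell level.

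The levels were also set against those of empty droplets in the same library. Camp in preneutrophil-like cells was on average 5.12 times its share in empty droplets, Mmp8 in mature subcluster 1 was 4.61 times and Mmp9 4.4 times. In classes other than the neutrophil stages the mean ratio was at most 0.509 for every member, apart from Chil3 in monocyte-like cells and in cluster 16. In B cell-like cells the ratios ran from 0.216 for Mmp8 to 0.357 for Lcn2. Chil3 in monocyte-like cells had a ratio of 1.48, and in cluster 16 of 0.863. Mmp8 in monocyte-like cells had 0.419, above the 0.216 of B cell-like cells and far below that of neutrophil-like cells.

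**Figure D3:**
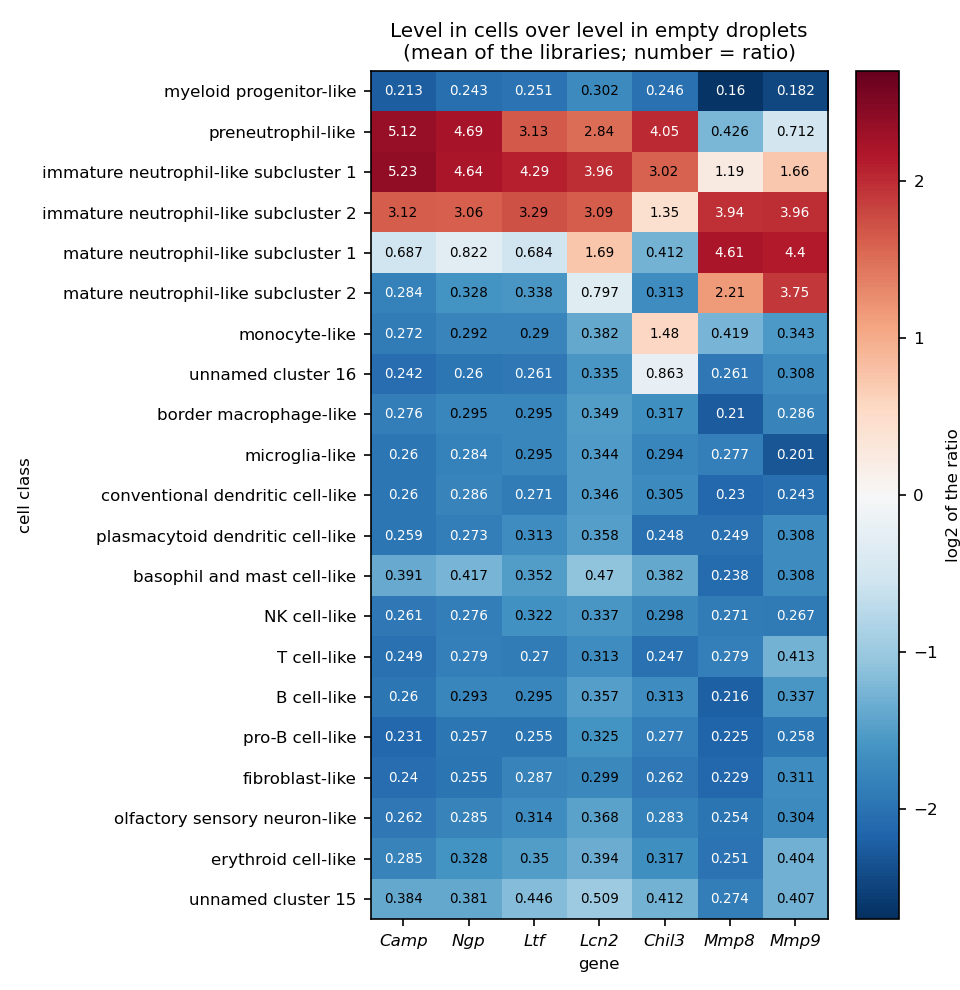
Level of each gene in each cell class divided by its level in empty droplets of the same library (mean over the libraries; number, the ratio; colour, its log2). Ratios well under 1 fill the classes other than the neutrophil stages, except Chil3 in monocyte-like cells at 1.48 and in unnamed cluster 16 at 0.863.

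The likeness of other genes to each member was measured as Pearson's r of log2(CPM + 10) over 56 sums of a class in a library, which share libraries and free RNA, and is given as a description. Camp was followed by 4930438A08Rik at 0.929, Cebpe, which encodes C/EBP epsilon, at 0.905 and Wfdc21 at 0.893. Ngp was followed by 4930438A08Rik at 0.92, S100a9 at 0.9 and Wfdc21 at 0.9, and Ltf by 4930438A08Rik at 0.889, Cd177, a surface protein of specific granules, at 0.877 and S100a9 at 0.869. Lcn2 had S100a9 at 0.951, Pglyrp1, a peptidoglycan-binding granule protein, at 0.949 and Wfdc21 at 0.93. Chil3, also high in monocyte-like cells, reached lower values, with Prdx5 at 0.831, Hp at 0.808 and C3 at 0.804. Mmp8 was followed by Retnlg at 0.93, Slpi, a protease inhibitor, at 0.875 and S100a11 at 0.873. Mmp9 was followed by Slc2a3, a glucose transporter, at 0.843, Ceacam10 at 0.841 and Fpr2, a formyl peptide receptor, at 0.829. Among the members, Camp and Ngp had an r of 0.993, Mmp8 and Mmp9 of 0.865, and Camp and Mmp8 of 0.602.

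Other genes of the granule programme were placed by the stage with the highest mean level. Of 14 other specific granule genes with at least 30 UMIs in the 4 stages, 5 were highest in preneutrophil-, 7 in immature and 2 in mature neutrophil-like cells. Values are given for the 3 genes of each list with most CPM in neutrophil-like cells. They were Lyz2 (lysozyme) at 18090 ± 951, Wfdc21 at 6864 ± 1029 and Pglyrp1 at 3392 ± 537 CPM. Of 12 other gelatinase granule and secretory vesicle genes, 9 were highest in mature cells, with Fcer1g at 3342 ± 248, Alox5ap at 1810 ± 370 and Mcemp1 at 845.4 ± 75.7 CPM. Of 10 azurophil granule genes, 7 were highest in progenitor-like cells and only Mgst1 in mature cells. Mpo, Elane, Prtn3, Ctsg and Ms4a3, all among those 7, were markers by which progenitor-like cells were named. Their place was thus set in large part by the naming. Cebpe went through the stages from 996.8 ± 56.5 in preneutrophil-like to 595.6 ± 43.8 in immature and 152.7 ± 12.9 CPM in mature cells, whereas Spi1, which encodes PU.1, was highest in mature cells (SD, n = 3 for each). Cebpe was itself a marker by which preneutrophil- and immature neutrophil-like cells were named, so its order was set in part by the naming.

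Proteins that restrain or receive the granule proteins were measured where the cells expressed them. Timp2, an inhibitor of matrix metalloproteinases, had 60.55 ± 9.5 CPM in preneutrophil-like, 175.2 ± 7.45 in immature and 361.6 ± 32.0 in mature cells, and was higher in fibroblast-like cells at 942.4 ± 59.2. Timp1, the inhibitor that binds gelatinase B, had 218.5, 171.9 and 667.5 CPM in fibroblast-like cells and 5.756, 3.94 and 1.528 in mature neutrophil-like cells. The fibroblast-like cells numbered 119, 84 and 20. Their make-up differed, with 88, 62 and 9 cells from cluster 14 and 31, 22 and 11 from cluster 19. Timp1 was not tested between CSD and HC in them. Lrp1, an endocytic receptor that takes up lactoferrin, had 282.6 ± 20.4 CPM in fibroblast-like and 73.13 ± 10.6 in border macrophage-like cells against 4.398 ± 2.49 in mature neutrophil-like cells (SD, n = 3). Slc22a17, a receptor for lipocalin 2, had 46.75 ± 2.07 CPM in fibroblast-like cells and 0.0 to 7.195 in mature neutrophil-like cells.

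The comparison of CSD with HC asked whether the granule genes differed after stress, first in immature and mature cells together, whose mix differed between libraries (301 of 776, 236 of 567 and 450 of 1238 cells were immature), and then by stage. UMIs were summed per library and tested with edgeR's quasi-likelihood test. Its spread came from the 2 HC pools and was drawn toward that of all genes. In immature and mature neutrophil-like cells together, none of the 7 genes passed an adjusted p of 0.05, against 0.426% of 1175 genes tested. Before adjustment 3 of 7 had p under 0.05, against 14.1% of all genes, and no member passed by DESeq2 either. CSD replicate 1 lay above both HC libraries for 5 of 7, against 27.1% of all genes, and below both for Mmp9, against 47.3%. The median log2 fold change of the members was 0.33, and that of all genes 0.0. Without the requirement that a gene be seen in over 15% of cells, 5 members passed here and in immature cells and 4 in mature cells, where 1.92%, 0.892% and 1.18% of all genes did, but the median log2 fold change of the genes of the filtered fits moved by 0.22, 0.19 and 0.25. Ngp, for one, went from 0.46 to 0.68, as far as the median did, and Mmp9 turned from -0.11 to 0.11. With immature and mature cells at equal weight no member passed, and Ngp was at 0.52, Lcn2 at 0.56 and Camp at 0.2.

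Ngp had 26720, 28800 and 36160 CPM in these cells, with CSD above both HC libraries, and a log2 fold change of 0.46 ± 0.0806 (SE; adjusted p of 0.154 by edgeR). Lcn2 had 8609, 9282 and 12020 CPM and a log2 fold change of 0.50 ± 0.0956 (adjusted p of 0.18), and Chil3 had 2508, 2984 and 3637 CPM and 0.48 ± 0.124 (adjusted p of 0.275). For these the HC libraries were nearer to each other than to CSD. Camp had 31880, 32950 and 33720 CPM and Mmp9 had 701.8, 736.4 and 634.5, with log2 fold changes of 0.13 and -0.11. Ltf (4062, 4986 and 5376 CPM) differed more between the HC libraries than between CSD and HC replicate 2.

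By stage, no member passed in immature cells (background 0.478% of 1673 genes), in mature cells (0.227% of 880) or in preneutrophil-like cells (0.764% of 3926). At an unadjusted p under 0.05 there were 4, 3 and 1 members, against 11.3%, 14.8% and 4.92% of all genes, and DESeq2 passed none. CSD lay above both HC libraries for 5 of 7 in each, against 24.6%, 30.7% and 23.5% of all genes. In immature cells the members that lay above both were Camp, Ngp, Ltf, Lcn2 and Chil3. In mature cells Mmp8 joined Ngp, Ltf, Lcn2 and Chil3, while Camp in CSD lay between the HC values, and Mmp9 was below both in immature and mature cells, as were 45.2% and 44.8% of all genes. Lcn2 in mature cells had 3920, 5110 and 6614 CPM and a log2 fold change of 0.61 ± 0.181, and Chil3 had 633.2, 801.8 and 1084 CPM and 0.66 ± 0.164, both at an adjusted p of 0.337 by edgeR. In empty droplets CSD was above the HC mean for every member, at 1.08 times for Mmp9, which was below both HC libraries in immature and mature cells, and at 1.45 to 1.64 times for the other members. In mature cells the level of Chil3 was only 1.08 to 1.32 times that of B cell-like cells in the same library. When the expected free RNA was subtracted, Camp and Ltf in mature cells turned to -0.31 and -0.23 on the log2 scale, and still no member passed.

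**Figure D4:**
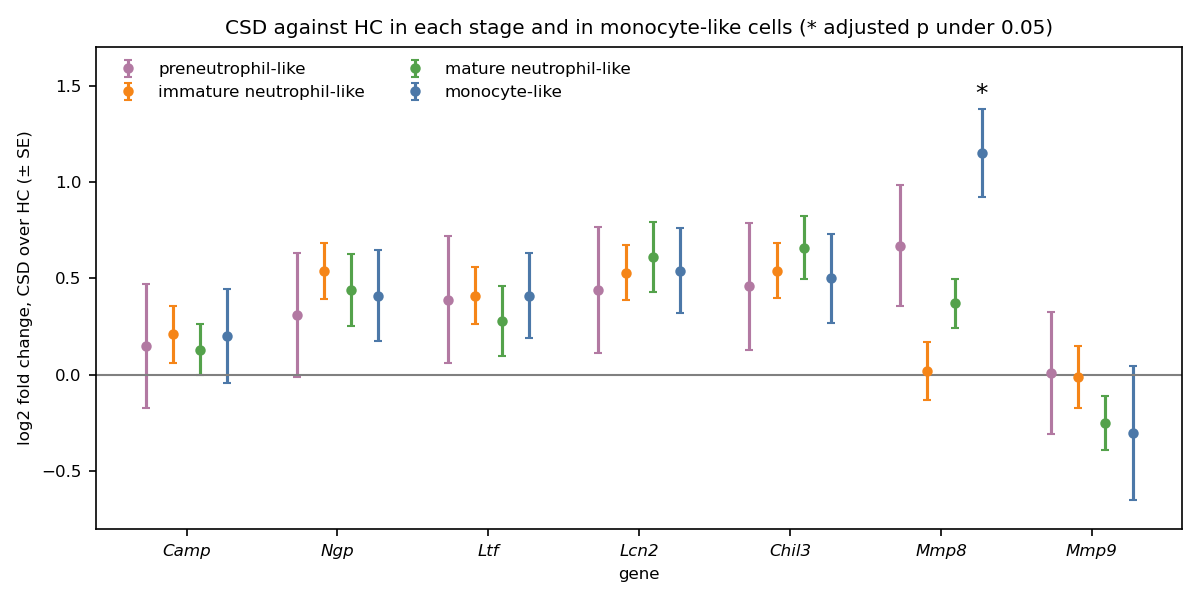
Log2 fold change of CSD over HC with its SE from edgeR for the 7 genes, in preneutrophil-, immature and mature neutrophil-like cells and in monocyte-like cells. Values lie above 0 for Camp, Ngp, Ltf, Lcn2 and Chil3 in all 4 classes (Camp and Ltf in mature cells turn below 0, at -0.31 and -0.23, after subtraction of free RNA, as do Camp, Ngp and Ltf in monocyte-like cells), and only Mmp8 in monocyte-like cells, at 1.15 ± 0.228, passed the adjusted threshold by edgeR, though not with DESeq2, with cells of at least 1000 UMIs or after subtraction of free RNA.

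Fits of single subclusters were added after the values by stage had been seen. In mature subcluster 1, Chil3 had 696.7, 876.1 and 1204 CPM, a log2 fold change of 0.69 ± 0.213 and, by edgeR, an adjusted p of 0.032. It was the only member of 7 that passed there, where 5.05% of 1029 genes did. Chil3 was near its background in these cells, as B cell-like cells had 525.0, 739.3 and 819.0 CPM. In empty droplets its level in CSD was 1.63 times the HC mean. The part of free RNA in this call was not tested. In mature subcluster 2, led by Il1b, Mmp8 had 958.0, 992.8 and 1742 CPM and Lcn2 had 2245, 2671 and 4516. The HC libraries lay close together and CSD well above them for both genes, with log2 fold changes of 0.92 ± 0.116 and 0.97 ± 0.125 and adjusted p of 0.137 for each by edgeR, where 0.138% of 725 genes passed. In immature subcluster 1, Mmp8 had 599.4, 739.9 and 525.1 CPM, with CSD below both HC libraries, as for 42.9% of all genes.

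That contrast between stages was tested for each gene as the CSD-against-HC difference in mature cells minus that in immature cells, with library as a block. Mmp8 passed, with a difference of 0.40 ± 0.0892 on the log2 scale and an adjusted p of 0.00127 by edgeR, and was the only member of 7, where 0.936% of 1175 genes passed. Its levels were 1372, 1689 and 1449 CPM in immature and 1735, 1964 and 2285 in mature cells, so that the mature to immature ratio was 1.26, 1.16 and 1.58. CSD lay between the HC libraries in the immature cells and above both in the mature ones. The call was lost with DESeq2 and after subtraction of free RNA, where the difference was 0.36 and 0.39 with an adjusted p of 1.0 for each. No gene of any kind passed in either setting, against 11 in the main fit. Estimated from B cell genes, free RNA made up 33.3%, 35.4% and 32.6% of UMIs in immature and 36.4%, 29.9% and 27.2% in mature cells.

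In monocyte-like cells (115, 89 and 130), Mmp8 was higher in CSD by edgeR, a call that was lost under 3 alternatives (adjusted p of 1.0 with DESeq2, 0.0858 with cells of at least 1000 UMIs and 0.103 after subtraction of free RNA). It had 148.8, 192.1 and 380.3 CPM, with exact Poisson 95% intervals of 119 to 184, 154 to 237 and 337 to 428 that cover counting error only and not the spread between pools. The log2 fold change was 1.15 ± 0.228 (adjusted p of 0.0155 by edgeR), and Mmp8 was the 1 member that passed, where 0.858% of 3148 genes did. Before adjustment 3 of 7 had p under 0.05, as did 8.51% of all genes. CSD lay above both HC libraries for 6 of 7 members, against 34.7% of all genes. Chil3, at 0.50 ± 0.229, had an adjusted p of 0.559, and Mmp9 had 85.76, 53.62 and 58.2 CPM. Under the 3 alternatives that lost the Mmp8 call, few genes of any kind passed. There were 3 with DESeq2, 4 with at least 1000 UMIs and 0 after subtraction, against 27 in the main fit.

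The Mmp8 molecules were spread over the monocyte-like cells. Cells with 3 or more numbered 5 of 115, 8 of 89 and 39 of 130, or 4.35%, 8.99% and 30.0% (exact 95% intervals 1.43 to 9.85%, 3.96 to 16.9% and 22.3 to 38.7%), at median depths of 4612, 5183 and 5148.5 UMIs. The 5 cells with most Mmp8 held 21.2%, 23.3% and 15.7% of its UMIs, and the highest cell had 5, 5 and 13. Thinned to 500 UMIs, 6.09%, 8.99% and 15.4% of the monocyte-like cells had an Mmp8 UMI, with intervals of 2.48 to 12.1%, 3.96 to 16.9% and 9.66 to 22.8% that overlapped. The B cell-like cells, at 92.27, 103.8 and 163.8 CPM of Mmp8, were also highest in CSD, and over 13 classes, which leave out the neutrophil stages, progenitor-like cells and cluster 16, CSD was above both HC libraries in 9, with a median ratio to the HC mean of 1.4. In empty droplets the ratio for Mmp8 was 1.49.

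Markers of neutrophils were measured in the same monocyte-like cells. The 10 neutrophil markers summed to 29250, 23710 and 31270 CPM, and 6 of 10 were above both HC libraries in CSD. The 10 immature markers summed to 946.9, 1090 and 1214 (7 of 10 above both), the 10 mature markers to 3073, 3617 and 3424 (5 of 10) and the 10 preneutrophil markers to 1094, 1430 and 1965 (9 of 10), and no marker was at 0. Of the 3148 genes tested in monocyte-like cells, 34.7% were above both, as were 6 of 10 monocyte markers. In B cell-like cells the counts for the neutrophil, immature, mature and preneutrophil lists were 4, 6, 7 and 3 of 10. Of the neutrophil markers in monocyte-like cells, Ly6g (77.01, 127.3 and 140.8 CPM), Cxcr2 (12.25, 11.17 and 17.6) and Il1r2 (10.5, 13.41 and 39.25) were above both HC libraries in CSD. So were Retnlg (1887, 2811 and 3182), S100a9 (9525, 8863 and 11350) and Csf3r (43.76, 37.98 and 46.02). G0s2, at 31.5, 46.92 and 17.6, and Stfa2l1, at 10.5, 8.937 and 5.414, were below both, and S100a8 and Trem1 lay between. Their part in the Mmp8 result was not tested.

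**Figure D5:**
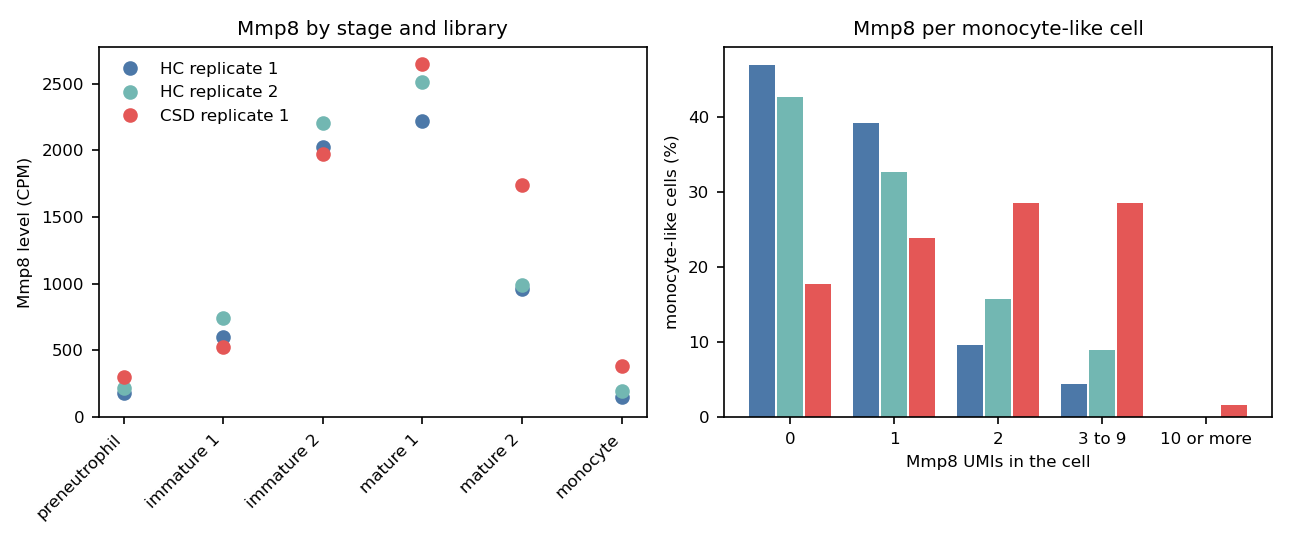
Left, level of Mmp8 (CPM) in each library by stage and in monocyte-like cells; right, share of monocyte-like cells (%) by their number of Mmp8 UMIs. CSD replicate 1 is highest in preneutrophil-like cells, in both mature subclusters (1742 against 958.0 and 992.8 CPM in subcluster 2, 2649 against 2221 and 2508 in subcluster 1) and in monocyte-like cells, and lowest in both immature subclusters.

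Of the other granule lists, few genes passed in these comparisons. Hp, which encodes haptoglobin, the binder of free haemoglobin, passed in immature cells as 1 of 12 other specific granule genes tested, with 1455, 1648 and 2895 CPM, a log2 fold change of 0.99 ± 0.138 (adjusted p of 0.0313 by edgeR), and CSD far above both HC libraries. Prtn3, which encodes the azurophil protease proteinase 3, passed in monocyte-like cells as 1 of 8 azurophil genes tested, with 89.26, 62.56 and 258.5 CPM, 1.73 ± 0.264 and an adjusted p of 0.00186 by edgeR. No gene passed in these cells after subtraction of free RNA, so the Prtn3 call was lost there. None of the other lists (gelatinase granule and secretory vesicle genes, transcription factors, inhibitors and activators of metalloproteinases, receptors and partners) had a gene that passed in neutrophil-, immature, mature, preneutrophil- or monocyte-like cells by edgeR, where at most 2 of any 1 of these lists in a comparison passed at 0.05 before adjustment. In immature cells the median log2 fold change was 0.25 for the 12 other specific granule genes and 0.13 for 10 gelatinase granule and secretory vesicle genes, against 0.41 for the members and -0.01 for all genes.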

How the data were processed

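Droplet libraries (10x 3′ chemistry) were sequenced by the authors, who counted UMIs with Cell Ranger 2.0 on mm10, as named in the submitters' processing notes. The deposited counts are whole, unnormalized and cover every barcode, so empty droplets are included. A barcode's library was read from its numeric ending, taken as the number in the sample labels.

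Barcodes needed at least 500 UMIs, under 8.3% mitochondrial UMIs and a number of genes within limits of the study. Scrublet (scanpy 1.11.5) marked 1.81% and 1.47% of HC barcodes as doublets at its own threshold, and 5.12% of CSD barcodes were marked by rank of score because that threshold lay out of range. With members and related granule genes left out of 3000 variable genes, libraries were aligned by mutual nearest neighbours on 50 components, and Leiden clustering (leidenalg 0.10.2, resolution 1) gave 22 clusters, named by marker lists. Unnamed were cluster 15, led by epithelial and glial genes, by a rule set after clusters were seen, and cluster 16, which matched preneutrophil markers best but was led by progenitor genes.

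UMIs summed per class and library were tested with edgeR 4.0.16 (R 4.3.3; TMM, glmQLFit and glmQLFTest, two-sided, Benjamini-Hochberg adjustment over all genes tested, threshold 0.05) on genes seen in over 15% of the cells. The HC pools left 1 residual degree of freedom, and the CSD pool was assumed to vary like them. Pools are the replicates, but edgeR draws the spread of each gene toward that of all genes. The p-values therefore do not rest on the gene's own spread between the HC pools alone, and hold no spread among CSD pools. Free RNA was estimated from 5 B cell genes. Alternatives were DESeq2 1.42.0, its size factors in edgeR, no filter by share of cells, doublets kept, at least 1000 UMIs, granule genes kept in clustering, resolution 2, no alignment, stages at equal weight, free RNA subtracted, and each HC library left out. Simulated counts were drawn with the same small fixed spread for every gene and library, not with a spread estimated from these pools. The shares recovered hold for that setting and do not give the power of the real comparison. There edgeR recovered 96.0% of genes changed 2-fold in neutrophil-like cells (1175 genes), 79.0% in immature (1673) and 99.0% in mature (880). Recovery was 31.0% in preneutrophil-like (3926) and 52.0% in monocyte-like cells (3148), and 65.0% in the test between stages (1175).

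Named are the members in every comparison, the 3 other genes most like each (at least 200 UMIs), and of each list those past the threshold or otherwise the 3 most abundant in neutrophil-like cells. Timp1, Lrp1, Slc22a17, Cebpe, Spi1, Mgst1, Ly6g, Cxcr2, Il1r2, Retnlg, S100a9, Csf3r, G0s2, Stfa2l1, S100a8 and Trem1, where outside that rule, were named after their values were seen. Members and lists were chosen with earlier results of these data known.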

Additional observations from a re-analysis of the deposited data

Results flagged for a closer look

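Mmp8, the neutrophil collagenase gene, stood out because its CSD-against-HC difference was not the same in the mature and the immature neutrophil-like cells. The difference between the stages was 0.40 on the log2 scale (SE 0.0892, adjusted p of 0.00127 by edgeR, library as a block, 1 residual degree of freedom). In mature cells Mmp8 had 1735 and 1964 CPM in the HC libraries and 2285 in CSD, and in immature cells 1372, 1689 and 1449. Over the alternatives the difference ran from 0.32 to 0.66, above 0 in each, and it did not pass with DESeq2 or after subtraction of free RNA.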

How the results depend on the processing

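No paired analysis was possible because HC and CSD share only replicate number 1. With 1 CSD pool and 2 HC pools, fits that leave out an HC library give values with no test. The counts of members that passed stayed at 0 in preneutrophil-like cells under every alternative. With no filter by share of cells 5 members passed in neutrophil-like, 5 in immature and 4 in mature cells, while the median of the genes moved by 0.22, 0.19 and 0.25 (log2). In mature cells 1 member passed with at least 1000 UMIs (Lcn2) and 1 in mature subcluster 1 alone (Chil3). The latter fit was chosen after seeing the data, and Chil3 lay near its background there. In monocyte-like cells 0 members passed with DESeq2, at least 1000 UMIs or free RNA subtracted, and in the test between stages 0 with DESeq2 or free RNA subtracted, against 1 otherwise. The causes were not tested.

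Several values changed sign, and their causes were not tested. Subtraction of free RNA leaves monocyte-like sums near 0, with Camp -9.26, Ngp -10.0 and Ltf -6.98 there. Subtraction also turned Camp in neutrophil-like cells to -0.04, Mmp8 in immature cells to -0.14, Camp and Ltf in mature cells to -0.31 and -0.23 and Mmp9 in preneutrophil-like cells to -0.2. Mmp8 in immature cells was -0.03 at resolution 2, -0.06 without alignment and -0.25 and -0.02 in immature subclusters 1 and 2 alone. Mmp9 without the filter was 0.11 in neutrophil-like, 0.18 in immature and 0.01 in mature cells, and with granule genes kept in clustering 0.01 in immature, -0.07 in preneutrophil-like and 0.16 in monocyte-like cells. In preneutrophil-like cells Mmp9 was -0.06 with DESeq2, -0.04 at resolution 2 and -0.07 without alignment. In the test between stages Camp was 0.06 without the filter, 0.14 with doublets kept, 0.15 with at least 1000 UMIs, 0.17 at resolution 2 and 0.15 without alignment. Ngp was 0.05, 0.06, 0.01, 0.03 and 0.2 under the same settings. Ltf was 0.02 without the filter, 0.02 with at least 1000 UMIs, 0.04 at resolution 2 and 0.13 without alignment. Of the other values for single genes, 485 counted as unchanged. For fits with a test this meant no change of direction and the same side of the threshold, or no adjusted p. For fits without a library, and for levels, it meant a move smaller than the spread over libraries or the SE, with direction not checked.

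Without one HC library or the other, Mmp8 was 1.01 to 1.3 in monocyte-like cells and 0.32 to 0.42 between stages, Lcn2 0.46 to 0.77 and Chil3 0.53 to 0.8 in mature cells, and Ltf 0.06 to 0.82 and Mmp9 -0.49 to 0.45 in preneutrophil-like cells, where HC replicate 2 had 29 cells. Mmp8 in immature cells (-0.07 to 0.1) and Mmp9 in immature (-0.11 to 0.09) and monocyte-like cells (-0.61 to 0.15) also took either sign. The stage with the highest mean was the one given for 7 of 7 members under each alternative other than doublets kept, where it was for 5, and at least 1000 UMIs, where it was for 6. Depth limits Mmp8 and Mmp9 most in monocyte- and preneutrophil-like cells, with 85 and 86 Mmp8 UMIs in the HC monocyte-like cells.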
